A study of Mus musculus with 36 samples.

Results

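The Egr and Nr4a activity-induced transcription factors are 8 genes, Egr1, Egr2, Egr3, Egr4, Nr4a1, Nr4a2, Nr4a3 and Npas4, found by symbol in a table of transcript levels from mouse brain. The symbols matched 8 of the 22154 genes and 18 of the 48717 transcripts in that table, and the levels of a gene's transcripts were summed. Brain RNA of C57BL/6 mice was sequenced in 4 groups of 3 libraries. These were APP/PS1 at 9 months, wild type at 9 months, APP/PS1 at 6 months and wild type at 6 months. APP/PS1 mice express the APP695swe and PS1-dE9 mutations, a model in which amyloid plaques form with age, and no promoter, sex, pooling or brain region is given in the labels. Levels are in FPKM, fragments scaled to transcript length and library size, so they can be compared between genes as levels per length. The number of reads behind each value is unknown.

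The genes of both families and Npas4 are switched on quickly in neurons when calcium enters through synaptic receptors and channels, largely through the transcription factors CREB, SRF and MEF2 already present in the cell. Egr proteins are zinc-finger factors that bind GC-rich sites, Nr4a proteins are nuclear receptors with no known natural ligand required for activity, and Npas4 is a basic helix-loop-helix PAS factor made almost only in neurons. In brain they are known as markers of recent neuronal activity and for roles in memory.

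The genotype labels were checked by App and by Prnp, the gene of the prion protein, which both differed between the genotypes at each age. App lay between 973.2 and 1029 FPKM in APP/PS1 and between 443.7 and 453.0 FPKM in wild type at 9 months. It lay between 969.9 and 1007 FPKM in APP/PS1 and between 433.3 and 440.7 FPKM in wild type at 6 months. Prnp lay between 717.6 and 759.6 FPKM in the 6 APP/PS1 libraries and between 248.8 and 269.0 FPKM in the 6 wild-type libraries. The extraction text of the labels names retinas, while the tissue label reads brain. The 7 retinal marker genes summed to 0.619 to 1.43 FPKM per library, with 3 of them under 0.1 FPKM in every library, while 6 markers of cortical and hippocampal excitatory neurons summed to 783.8 to 926.2 FPKM. Summed FPKM ran from 292540 to 301778 per library. Whether the 3 libraries of each group are separate mice is not stated, and if they are not, p-values reflect a spread that may be technical.

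The DNA upstream of the genes is shown first, because each member with a window at hand holds a short motif there. The members were chosen as activity-induced genes, a class switched on largely through CREB, SRF and MEF2. A CREB motif among them is therefore no separate support. Windows of 250 bases before a transcript start, from RefSeq on GRCm38.p6, were at hand for 6 of the 8 members. Egr1 and Egr3 had no window at hand and were not searched. The motif TGACG, the core of the site bound by CREB, was searched on both strands and occurred in a window of 6 of these 6 members. It occurred in 17.8% of all 32851 windows of the same length. That share counts single windows, while a member was counted if any of its windows held the motif. Capitals mark TGACG or its reverse complement CGTCA in each sequence. In Egr2 they also mark a CArG box, the site bound by SRF, and in Nr4a1 the reverse complement of GCGGGGGCG, a site form bound by Egr proteins. A match is a description of these letters and not a bound site.
Egr2, chr10:67537619-67537868, plus strand: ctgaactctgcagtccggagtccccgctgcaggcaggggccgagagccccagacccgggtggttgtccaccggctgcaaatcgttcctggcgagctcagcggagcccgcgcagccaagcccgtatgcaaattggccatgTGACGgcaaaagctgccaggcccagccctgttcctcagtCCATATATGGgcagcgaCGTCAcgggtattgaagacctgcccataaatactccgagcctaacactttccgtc
Egr4, chr6:85513590-85513839, minus strand: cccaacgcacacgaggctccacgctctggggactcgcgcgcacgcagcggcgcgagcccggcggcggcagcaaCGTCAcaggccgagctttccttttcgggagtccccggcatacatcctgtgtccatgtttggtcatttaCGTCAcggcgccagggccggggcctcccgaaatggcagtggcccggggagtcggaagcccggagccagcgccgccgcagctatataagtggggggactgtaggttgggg
Nr4a1, chr15:101266596-101266845, plus strand: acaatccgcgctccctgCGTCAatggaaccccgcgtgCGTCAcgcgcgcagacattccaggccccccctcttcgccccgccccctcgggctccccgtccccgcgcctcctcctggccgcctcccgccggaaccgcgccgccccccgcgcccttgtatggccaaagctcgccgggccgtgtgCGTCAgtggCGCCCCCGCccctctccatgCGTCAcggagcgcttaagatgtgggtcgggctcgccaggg
Npas4, chr19:4989972-4990221, minus strand: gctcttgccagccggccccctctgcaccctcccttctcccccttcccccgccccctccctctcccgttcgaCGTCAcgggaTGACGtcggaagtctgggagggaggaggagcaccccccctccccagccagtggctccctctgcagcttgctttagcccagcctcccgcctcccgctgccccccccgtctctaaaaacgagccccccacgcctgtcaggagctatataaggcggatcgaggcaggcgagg
The Nr4a1 window held 4 copies of TGACG, and those of Nr4a2 and Nr4a3 also held 4 copies each. Egr2 has 5 windows in the table, 3 of which overlap each other and hold the motif. A CArG box was in 4 of the 5, and it was the same box in the 3 that overlap. The CArG box was searched only as CCWWWWWWGG, where W is A or T, and looser forms were not searched. Among the members searched, no window outside Egr2 held that exact form, which 1.47% of all windows hold. For Egr1 and Egr3 this is unknown. The GCGGGGGCG form was in the Nr4a1 window and in 2.57% of all windows. The full palindrome TGACGTCA (1.55% of all windows), the Egr site GCGTGGGCG (0.536%) and AAAGGTCA, the site bound by single Nr4a proteins (1.34%), were in 0 of the 10 windows of members. The letters TATAAA were in the Nr4a2 window, on the opposite strand, and in 12.4% of all windows.

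All 8 members passed the filter on low values, which asked for 0.5 FPKM or more on average. Egr3 and Egr1 were the most abundant members. Egr3, a factor best known for muscle spindle development and studied in memory, averaged 54.5 ± 3.87 FPKM over the 12 libraries (SD, n = 12). Egr1, the most studied factor of the family in memory, averaged 47.5 ± 8.19 FPKM. Their ranges overlapped, and Egr3 was the higher in 9 of 12 libraries. Nr4a1 followed at 26.6 ± 6.21 FPKM, then Egr4 at 14.9 ± 1.94, Nr4a2 at 10.96 ± 2.17 and Nr4a3 at 8.03 ± 1.45 FPKM. Npas4 averaged 2.82 ± 0.724 FPKM and Egr2 1.78 ± 0.634 FPKM. The ranges of neighbours in this order did not overlap between Nr4a1 and Egr4 or between Nr4a3 and Npas4, and overlapped in the other 5 steps. Over the 12 libraries the coefficient of variation was 7.11% for Egr3, the steadiest member, and 35.6% for Egr2, the most variable.

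**Figure D1:**
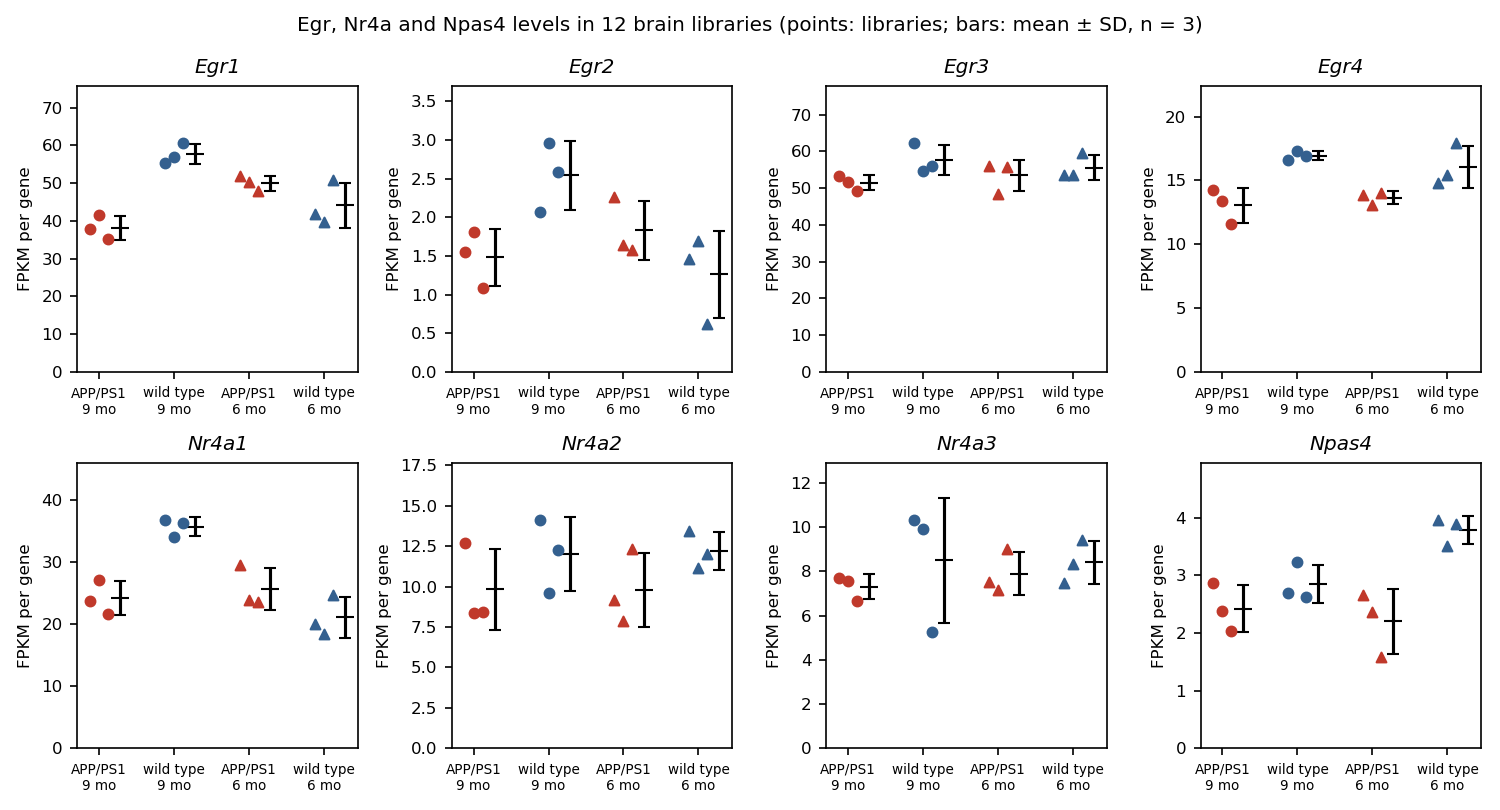
Level of each member in FPKM (y axis, from 0) in the 12 libraries, in groups of APP/PS1 and wild type at 9 months (circles) and at 6 months (triangles), with black bars for the mean ± SD of 3 libraries. The 3 APP/PS1 libraries lay below the 3 wild-type libraries at 9 months in Egr1, Egr2, Egr3, Egr4 and Nr4a1, and at 6 months in Egr4 and Npas4.

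At 9 months every member had a lower mean in APP/PS1 than in wild type, and Egr1 passed the test. Egr1 had 37.8, 41.6 and 35.2 FPKM in APP/PS1 and 55.5, 57.1 and 60.6 FPKM in wild type. The groups did not overlap, and the highest APP/PS1 library lay well under the lowest wild-type library. Egr1 fell to 38.2 ± 3.19 FPKM in APP/PS1, against 57.7 ± 2.64 FPKM in wild type (SD, n = 3 each), a log2 change of −0.59 (SE 0.09, 95% interval −0.79 to −0.40, limma adjusted p = 0.0335). This was 1 call among 8 members, where 13 of 13593 genes tested (0.0956%) were called. An unadjusted p under 0.05 was reached by 5 of 8 members and by 9.73% of all genes.

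Of the Egr genes that were not called, Egr4, a family member expressed mainly in brain, had 14.3, 13.4 and 11.6 FPKM in APP/PS1 and 16.6, 17.3 and 16.9 FPKM in wild type at 9 months. The groups did not overlap, with a log2 change of −0.37 (95% interval −0.55 to −0.19, limma adjusted p = 0.171). Egr2, known for hindbrain patterning and for myelination by Schwann cells, had 1.55, 1.81 and 1.08 FPKM in APP/PS1 and 2.07, 2.96 and 2.59 FPKM in wild type. The groups again did not overlap, but the interval was wide (log2 −0.70, 95% interval −1.32 to −0.08, limma adjusted p = 0.450). Egr3 had 53.4, 51.6 and 49.3 FPKM in APP/PS1 and 62.3, 54.6 and 55.9 FPKM in wild type. The gap between its groups was small, at a log2 change of −0.16 (95% interval −0.32 to −0.01, limma adjusted p = 0.496).

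Among the Nr4a genes, Nr4a1, also called Nur77, had 23.8, 27.2 and 21.6 FPKM in APP/PS1 and 36.8, 34.0 and 36.2 FPKM in wild type at 9 months. The groups did not overlap and the log2 change was close in size to that of Egr1, but the call was not reached (−0.56, 95% interval −0.82 to −0.30, limma adjusted p = 0.156). Nr4a2, also called Nurr1 and needed for midbrain dopamine neurons to develop, had 12.7, 8.37 and 8.42 FPKM in APP/PS1 and 14.1, 9.62 and 12.3 FPKM in wild type. Its groups overlapped (log2 −0.29, 95% interval −0.73 to 0.14). Nr4a3, also called Nor1, had 7.68, 7.56 and 6.66 FPKM in APP/PS1 and 10.3, 9.93 and 5.25 FPKM in wild type. Wild type 3 was the lowest of the 12 libraries for Nr4a3, and the groups overlapped (log2 −0.16, 95% interval −0.62 to 0.30).

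Npas4, known for adjusting the inhibitory synapses of active neurons, had 2.86, 2.38 and 2.04 FPKM in APP/PS1 and 2.69, 3.23 and 2.62 FPKM in wild type at 9 months. Its groups overlapped (log2 −0.22, 95% interval −0.59 to 0.15, limma adjusted p = 0.737). In all, 8 of 8 members had a log2 change below 0 and their median was −0.33, while 46.6% of all genes were below 0 and the median of all genes was 0.01. The APP/PS1 libraries lay below all wild-type libraries in 5 of 8 members, and in 8.0% of all genes tested. As these are bulk samples, fewer cells making these RNAs and less RNA per cell cannot be told apart.

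The Egr1 call at 9 months was close to the threshold. In 9 of the 12 fits that each dropped a library it was lost (limma adjusted p throughout). Without a 9-month library the adjusted p was 0.136 (APP/PS1 1), 0.142 (APP/PS1 3), 0.156 (wild type 1), 0.118 (wild type 2) and 0.146 (wild type 3). Without a 6-month library it was 0.0589 (APP/PS1 1), 0.0689 (APP/PS1 2), 0.0512 (APP/PS1 3) and 0.0516 (wild type 1). With all libraries, it was also lost with no filter on low values (limma adjusted p = 0.0549), with no mean-variance trend in limma (adjusted p = 0.0713), and with the striatal and choroid plexus marker levels as covariates (adjusted p = 0.152). The log2 change in the 12 fits stayed between −0.66 and −0.54. APP/PS1 3 of 9 months was among the 3 lowest of the 12 libraries for 8 of 8 members. The same library had the highest sum of the 4 pituitary markers, 241.8 FPKM against 0.960 to 50.4 FPKM in the other 11 libraries, and the part of this in the member values was not tested. Without it the log2 changes at 9 months were −0.54 for Egr1, −0.49 for Nr4a1, −0.29 for Egr4 and −0.52 for Egr2. Those of Egr3, Nr4a2, Nr4a3 and Npas4 were then −0.13, −0.20, −0.09 and −0.11.

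**Figure D2:**
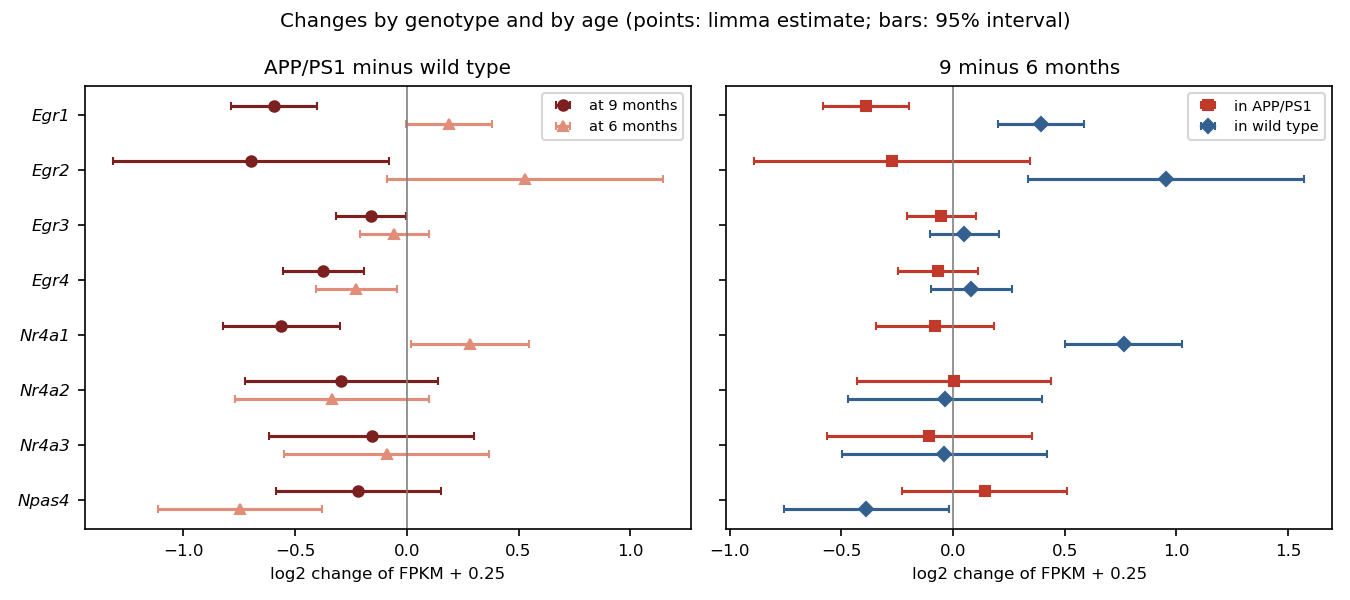
Log2 changes (x axis) of the 8 members between the genotypes at each age (left) and between the ages in each genotype (right), with bars for 95% intervals of the limma estimate. Egr1 at 9 months (−0.59) was the call among them, and the estimates of Egr1, Egr2 and Nr4a1 lay on opposite sides of 0 at the 2 ages.

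At 6 months 0 of 8 members passed the test with limma, where 6 of 13593 genes (0.0441%) were called, and 3 of 8 members and 11.7% of all genes had an unadjusted p under 0.05. Npas4 had the lowest estimate. It had 2.66, 2.37 and 1.58 FPKM in APP/PS1 and 3.97, 3.51 and 3.90 FPKM in wild type. The groups did not overlap (log2 −0.75, SE 0.17, 95% interval −1.12 to −0.38, limma adjusted p = 0.155). Egr4 had 13.9, 13.1 and 14.0 FPKM in APP/PS1 and 14.8, 15.4 and 17.9 FPKM in wild type. Its groups did not overlap either, so that it was the member with separate groups, lower in APP/PS1, at both ages (log2 −0.23, 95% interval −0.41 to −0.05, limma adjusted p = 0.338). Such separation at both ages was present in 107 of 13593 genes (0.787%). At 6 months, 2 of 8 members had APP/PS1 below all wild-type libraries, and 9.14% of all genes did.

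Egr1, Nr4a1 and Egr2 had higher means in APP/PS1 at 6 months, with overlapping groups. Egr1 had 51.9, 50.3 and 47.9 FPKM in APP/PS1 and 41.8, 39.7 and 50.9 FPKM in wild type. The third wild-type library lay among the APP/PS1 libraries (log2 0.19, 95% interval −0.01 to 0.38, limma adjusted p = 0.437). Nr4a1 had 29.5, 23.8 and 23.6 FPKM in APP/PS1 and 20.1, 18.4 and 24.8 FPKM in wild type, where again wild type 3 overlapped (log2 0.28, 95% interval 0.02 to 0.55, limma adjusted p = 0.399). Egr2 had 2.27, 1.64 and 1.58 FPKM in APP/PS1 and 1.46, 1.70 and 0.622 FPKM in wild type (log2 0.53, 95% interval −0.09 to 1.15). Wild type 3 held the lowest Egr2 value of the 12 libraries.

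The remaining members overlapped at 6 months. Egr3 had 56.0, 48.5 and 55.8 FPKM in APP/PS1 and 53.5, 53.7 and 59.6 FPKM in wild type (log2 −0.06, 95% interval −0.21 to 0.10). Nr4a2 had 9.17, 7.86 and 12.3 FPKM in APP/PS1 and 13.5, 11.1 and 12.1 FPKM in wild type (log2 −0.33, 95% interval −0.77 to 0.10). Its mean was lower in APP/PS1 at both ages, with overlapping libraries. Nr4a3 had 7.54, 7.17 and 9.00 FPKM in APP/PS1 and 7.49, 8.35 and 9.43 FPKM in wild type (log2 −0.09, 95% interval −0.55 to 0.37). Of the 8 members 5 had a log2 change below 0 at 6 months, with a median of −0.07, against 53.9% and a median of −0.01 for all genes.

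The genotype effect at 9 months minus that at 6 months was tested directly, since a call at one age and not at the other does not show a difference. No member passed with limma, where 1 of 13593 genes (0.00736%) was called, and 4 of 8 members had an unadjusted p under 0.05, against 11.3% of all genes. For Egr1 the effect at 9 months was lower by 0.78 log2 units (−0.78, SE 0.12, 95% interval −1.05 to −0.51, limma adjusted p = 0.186). It was called without wild type 3 of 6 months (−0.89, limma adjusted p = 0.0168). For Nr4a1 the difference was −0.84 (95% interval −1.22 to −0.47, limma adjusted p = 0.204) and for Egr2 −1.23 (95% interval −2.10 to −0.35, limma adjusted p = 0.319). Npas4 had a difference of the other sign, 0.53 (95% interval 0.01 to 1.05, limma adjusted p = 0.435). The estimates for Egr3, Egr4, Nr4a2 and Nr4a3 lay between −0.15 and 0.04, each with an interval that held 0.

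Averaged over both ages, 0 of 8 members passed with limma, where 16 of 13593 genes (0.118%) were called. The estimate was below 0 in 8 of 8 members, against 50.6% of all genes, and 4 of 8 had an unadjusted p under 0.05, against 10.4% of all genes. Egr4 had the smallest p, with a log2 change of −0.30 (SE 0.06, 95% interval −0.43 to −0.17, limma adjusted p = 0.107), and Npas4 had −0.48 (SE 0.12, 95% interval −0.74 to −0.22, limma adjusted p = 0.204). Egr1, whose estimates at the 2 ages had opposite signs, had −0.20 (95% interval −0.34 to −0.07, limma adjusted p = 0.312). The remaining 5 members lay between −0.31 for Nr4a2 and −0.09 for Egr2.

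The comparison of ages shares its libraries with the comparison of genotypes, so its values are given side by side and not as separate support. In wild type, 9 months against 6 months, 0 of 8 members passed with limma, where 6 of 13593 genes (0.0441%) were called, and 4 of 8 had an unadjusted p under 0.05 (10.3% of all genes). Nr4a1 averaged 35.7 ± 1.49 FPKM at 9 months and 21.1 ± 3.31 FPKM at 6 months (SD, n = 3 each). The 3 older wild-type libraries lay above the 3 younger ones (log2 0.76, SE 0.12, 95% interval 0.50 to 1.03, limma adjusted p = 0.0865), and without wild type 3 of 6 months the difference was called (0.89, limma adjusted p = 0.0359). Egr1 averaged 57.7 ± 2.64 FPKM at 9 months and 44.1 ± 5.94 FPKM at 6 months in wild type (log2 0.39, 95% interval 0.20 to 0.58, limma adjusted p = 0.202). Egr2 averaged 2.54 ± 0.444 FPKM at 9 months and 1.26 ± 0.566 FPKM at 6 months (log2 0.95, 95% interval 0.34 to 1.57, limma adjusted p = 0.299). The wild-type groups did not overlap for these 3 genes, higher at 9 months, while 8.55% of all genes showed such a separation. Npas4 averaged 2.85 ± 0.334 FPKM at 9 months and 3.79 ± 0.244 FPKM at 6 months, with the older libraries below the younger, as in 9.17% of all genes (log2 −0.39, 95% interval −0.76 to −0.02, limma adjusted p = 0.469).

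In APP/PS1, 0 of 8 members passed between the ages with limma, where 0 of 13593 genes (0%) were called, and 1 of 8 members and 13.1% of all genes had an unadjusted p under 0.05. That member was Egr1, with 38.2 ± 3.19 FPKM at 9 months and 50.0 ± 1.97 FPKM at 6 months (log2 −0.39, 95% interval −0.58 to −0.20, limma adjusted p = 0.137). The APP/PS1 libraries of 9 months lay below those of 6 months for Egr1 and overlapped in the other 7 members, and 6.73% of all genes were separated in that direction. Nr4a1 averaged 24.2 ± 2.79 FPKM at 9 months and 25.6 ± 3.35 FPKM at 6 months in APP/PS1 (log2 −0.08, 95% interval −0.34 to 0.18). Egr4 averaged 13.1 ± 1.36 FPKM at 9 months and 13.7 ± 0.485 FPKM at 6 months in APP/PS1. For both genes the libraries of the ages overlapped.

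At the transcript level most members rested on a single transcript, in part because no other was listed. Egr3, Egr4, Nr4a1 and Npas4 each had 1 transcript listed, so their share of 100% was fixed by the listing. Egr1 had 100% of its summed FPKM in 1 transcript, and a second was listed at 0 in 12 of 12 libraries. In Egr2, 98.2% of the summed level lay in ENSMUST00000048289, and in Nr4a3 99.1% lay in ENSMUST00000030025. Nr4a2 was the member with several transcripts above 10% of its level. ENSMUST00000028166 held 50.9%, ENSMUST00000112629 held 37.7% and ENSMUST00000112627 held 11.4%.

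The split of Nr4a2 between its transcripts differed between the 4 libraries that the labels number 3 and the other 8. In the libraries numbered 3, ENSMUST00000028166 held 87.5% (APP/PS1, 9 months), 94.0% (wild type, 9 months), 92.1% (APP/PS1, 6 months) and 77.2% (wild type, 6 months) of the gene's level. In the other 8 libraries it held 21.5% to 56.3%. ENSMUST00000112629 lay at 1.06, 0.736, 0.977 and 0.449 FPKM in the libraries numbered 3, in the same order of groups. It lay at 4.62 to 7.82 FPKM in the other 8 libraries, so the values did not overlap. ENSMUST00000112627 was listed at 0 in 4 of 12 libraries, 3 of them numbered 3. Of 18516 transcripts averaging 1 FPKM or more, the 4 libraries numbered 3 lay below the other 8 in 28 and above them in 35. For the libraries numbered 1 these counts were 55 and 38, and for those numbered 2 they were 24 and 32, so the counts for number 3 lay between those for the other numbers. The summed Nr4a2 level of the libraries numbered 3 (8.42 to 12.3 FPKM) lay within that of the others (7.86 to 14.1 FPKM).

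**Figure D3:**
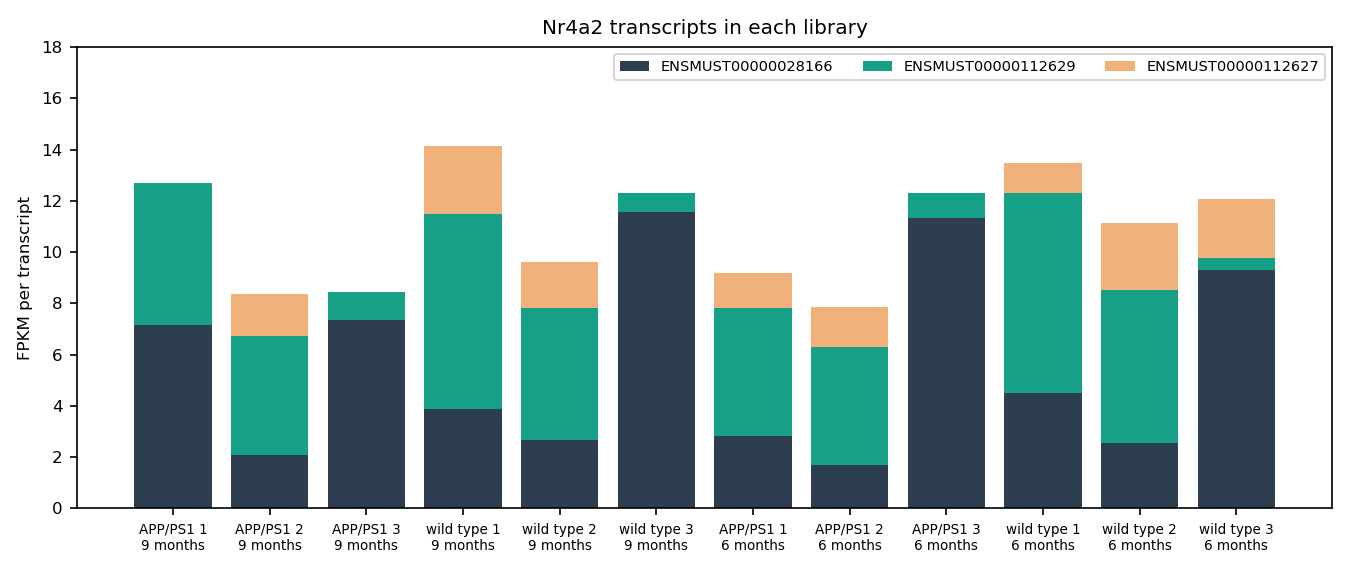
FPKM of the 3 Nr4a2 transcripts (stacked bars, y axis from 0) in each of the 12 libraries. ENSMUST00000112629 stands at 4.62 to 7.82 FPKM in the libraries numbered 1 and 2 and at 0.449 to 1.06 FPKM in those numbered 3.

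Other genes of the same response were read from lists, which were chosen with earlier results of these data known. No gene of these 5 lists was called by limma in any of the 6 comparisons, so they are described by counts, with members at an unadjusted p under 0.05 given for 9 and 6 months. In the AP-1 family, the Fos and Jun factors induced alongside Egr genes, 6 of 8 members were tested. At 9 months 5 of 6 were below 0 in APP/PS1 (median log2 −0.34), and the groups were separate and lower in 5 of 6, against 8.0% of all genes. An unadjusted p under 0.05 was reached by 5 of 6 at 9 months (9.73% of all genes) and by 3 of 6 at 6 months (11.7% of all genes). Junb had 23.9 ± 2.73 FPKM in APP/PS1 and 30.5 ± 2.35 FPKM in wild type, and Jun had 14.9 ± 1.04 FPKM in APP/PS1 and 18.6 ± 0.861 FPKM in wild type at 9 months. Jund, the AP-1 factor of highest level here, had 44.7 ± 0.841 FPKM in APP/PS1 and 44.3 ± 3.82 FPKM in wild type. At 6 months 5 of 6 were below 0 (median −0.14), and 2 of 6 were separate and lower, against 9.14% of all genes.

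The 26 other activity-induced genes include those of synaptic proteins, secreted peptides and signalling inhibitors. Of the 26, 25 were below 0 at 9 months (median log2 −0.16). In 12 of 26 the APP/PS1 libraries lay below all wild-type libraries, against 8.0% of all genes. An unadjusted p under 0.05 was reached by 9 of 26 at 9 months (9.73% of all genes) and by 2 of 26 at 6 months (11.7% of all genes). Homer1, a scaffold of glutamate receptors, had 90.2 ± 4.39 FPKM in APP/PS1 and 106.3 ± 8.52 FPKM in wild type, and Vgf, a secreted neuropeptide precursor, had 107.4 ± 3.76 FPKM in APP/PS1 and 119.9 ± 5.16 FPKM in wild type. Scg2, a secretory granule protein, had 89.8 ± 6.67 FPKM in APP/PS1 and 96.9 ± 16.7 FPKM in wild type. At 6 months 18 of 26 were below 0 (median −0.05), with 2 separate and lower (9.14% of all genes) and 1 separate and higher (6.70% of all genes).

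For genes that act upstream of the response, medians lay near that of all genes. Of 18 upstream signalling genes 10 were below 0 at 9 months (median −0.02) and 10 at 6 months (median −0.02). Their log2 changes ran from −0.39 to 0.24 at 9 months and from −0.35 to 0.19 at 6 months. An unadjusted p under 0.05 was reached by 4 of 18 at 9 months (9.73% of all genes) and by 5 of 18 at 6 months (11.7% of all genes). Groups were separate and lower in 2 of 18 at 9 months (8.0% of all genes) and in 3 of 18 at 6 months (9.14%). They were separate and higher in 2 of 18 at 6 months (6.70%) and in 2 of 18 at 9 months, where no share of all genes was counted. Creb1, the gene of CREB, had the lowest estimate of the list at both ages and is named after its values were seen. It had 12.6, 9.77 and 6.09 FPKM in APP/PS1 and 13.2, 9.96 and 13.1 FPKM in wild type at 9 months, and 5.86, 10.8 and 14.7 FPKM in APP/PS1 and 15.9, 10.2 and 12.04 FPKM in wild type at 6 months. The groups overlapped at both ages, with limma adjusted p = 0.754 at 9 months and 0.717 at 6 months. Camk2a, the calcium-dependent kinase of forebrain neurons, had 325.5 ± 7.94 FPKM in APP/PS1 and 344.1 ± 12.98 FPKM in wild type at 9 months. Grin1, the obligate subunit of NMDA receptors, had 112.5 ± 0.958 FPKM in APP/PS1 and 109.4 ± 4.48 FPKM in wild type. Of 7 binding partners and co-repressors 4 were below 0 at 9 months (median −0.05) and 4 at 6 months (median −0.03), with 1 of 7 (9.73% of all genes) and 0 of 7 (11.7% of all genes) at an unadjusted p under 0.05. Among them, Nab2, a co-repressor of Egr proteins, had 13.4 ± 0.935 FPKM in APP/PS1 and 15.0 ± 0.560 FPKM in wild type at 9 months (log2 −0.16, limma adjusted p = 0.429). Arnt2, a dimer partner of Npas4, had 47.8 ± 4.28 FPKM in APP/PS1 and 50.4 ± 2.07 FPKM in wild type. Rxrb, of the family that pairs with Nr4a1 and Nr4a2, had 21.9 ± 1.54 FPKM in APP/PS1 and 22.6 ± 0.123 FPKM in wild type.

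**Figure D4:**
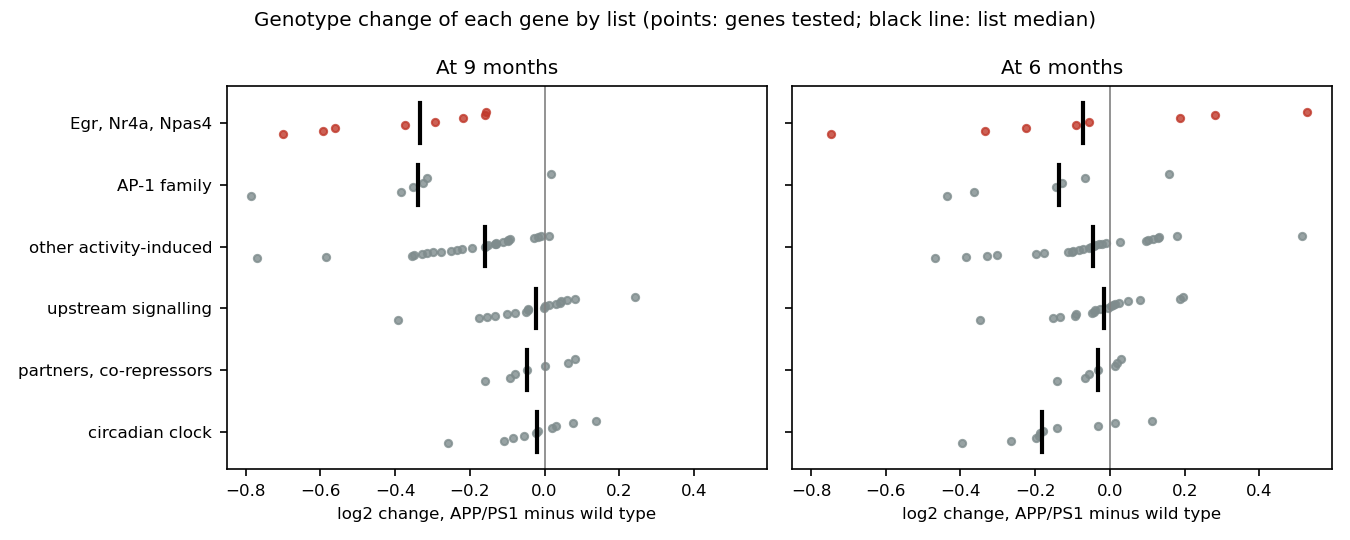
Log2 change between the genotypes (x axis) of each gene tested, by list, at 9 months (left) and 6 months (right), with a black line at the list median. At 9 months the medians were −0.33 for the Egr, Nr4a and Npas4 genes and −0.34 for the AP-1 family, against −0.02 for upstream signalling genes.

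Several marker lists moved with the groups, and their values stand here beside the member results. At 9 months the 6 choroid plexus markers summed to 75.0 to 292.9 FPKM in APP/PS1 and 304.7 to 345.6 FPKM in wild type, and the 4 ependymal markers to 4.04 to 5.53 and 6.60 to 7.31 FPKM in the same order. The 6 microglial markers summed to 142.9 to 173.3 FPKM in APP/PS1 and 115.4 to 132.2 FPKM in wild type, and the 4 pituitary markers to 19.9 to 241.8 and 3.88 to 19.2 FPKM in the same order. At 6 months the 9 striatal markers summed to 368.9 to 393.2 FPKM in APP/PS1 and 437.1 to 492.0 FPKM in wild type. The 6 astrocyte markers then summed to 841.4 to 902.3 FPKM in APP/PS1 and 794.2 to 819.1 FPKM in wild type, and the 3 red blood cell markers to 148.5 to 202.7 and 209.0 to 243.7 FPKM in the same order. Of the astrocyte markers 4 of 6 had a log2 change above 0 at 6 months, with a median of 0.03, so not all of them moved with the sum. The summed levels of neuron, excitatory, dentate granule, interneuron, cerebellar, dopamine neuron, oligodendrocyte, endothelial and retinal markers overlapped between the genotypes at both ages. An overlapping sum does not mean unchanged markers. At 9 months 6 of 6 oligodendrocyte (median 0.14) and 4 of 4 dopamine neuron markers tested (0.20) were above 0. So were 9 of 9 striatal markers (0.11), whose sum overlapped then. At 6 months 0 of 6 interneuron markers were above 0 (median −0.16). No marker of these lists was at 0 in all 12 libraries, and none was called at either age.

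Between the ages in wild type, where the means of Nr4a1, Egr1 and Egr2 were higher at 9 months and that of Npas4 lower, 5 marker sums did not overlap. The choroid plexus sum was 304.7 to 345.6 FPKM at 9 months and 5.76 to 287.1 FPKM at 6 months. The striatal sum was 354.6 to 385.9 FPKM at 9 months and 437.1 to 492.0 FPKM at 6 months. The interneuron sum was 378.1 to 418.4 FPKM at 9 months and 420.7 to 447.6 FPKM at 6 months. The endothelial sum was 64.2 to 73.7 FPKM at 9 months and 55.4 to 61.6 FPKM at 6 months, and the dentate granule sum was 12.7 to 15.0 FPKM at 9 months and 11.2 to 12.5 FPKM at 6 months. The mean log2 levels of the striatal and choroid plexus lists were then used as covariates, and no member was called at either age. At 9 months the log2 change of Egr1 was −0.58 (limma adjusted p = 0.152). That of Nr4a1 was −0.59 (limma adjusted p = 0.351) and that of Egr4 −0.27 (limma adjusted p = 0.689). That of Nr4a2 at 9 months was then −0.10 (limma adjusted p = 0.982). With the same covariates, the log2 changes at 6 months were −0.65 for Npas4, −0.42 for Egr4 and −0.69 for Nr4a2 (limma adjusted p = 0.972 each). The striatal levels of the genotypes did not overlap at 6 months, so that covariate and genotype are hard to separate there. The part of the other marker lists in these results was not tested.

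Activity-induced genes also vary over the day, and the labels give no time of collection. The 10 clock genes summed to 290.2 to 310.7 FPKM in APP/PS1 and 296.8 to 303.2 FPKM in wild type at 9 months. At that age 6 of 10 were below 0 (median −0.02) and 1 of 10 had an unadjusted p under 0.05 (9.73% of all genes). Of the 10, 2 were then separate and lower (8.0% of all genes) and 1 separate and higher, where no share of all genes was counted. At 6 months the 10 clock genes summed to 258.7 to 280.3 FPKM in APP/PS1 and 297.1 to 303.6 FPKM in wild type. Of these, 8 of 10 were below 0 (median −0.18). Of the 10, 5 had an unadjusted p under 0.05 (11.7% of all genes) and 5 were separate and lower (9.14% of all genes). Dbp, a clock output factor, had 33.0 ± 3.98 FPKM in APP/PS1 and 43.4 ± 3.22 FPKM in wild type at 6 months (limma adjusted p = 0.131), and 44.8 ± 1.94 and 40.7 ± 1.20 FPKM in the same order at 9 months. Tef, a related factor, had 75.7 ± 0.700 FPKM in APP/PS1 and 86.3 ± 3.48 FPKM in wild type at 6 months. Hlf, of the same family, had 43.9 ± 1.74 FPKM in APP/PS1 and 43.5 ± 0.702 FPKM in wild type. The part of the clock genes in the member values at either age, including the lower Npas4 at 6 months, was not tested.

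Likeness between profiles was measured by the root mean square difference of log2 values scaled to mean 0 and SD 1 over the 12 libraries, where 0 means the same profile. Among the members, Egr1 and Nr4a1 were closest (0.607), followed by Egr3 and Egr4 (0.666) and by Egr3 and Nr4a2 (0.717). Egr2 and Npas4 were the farthest apart (1.45). Of 12642 other genes averaging 1 FPKM or more, the 10 closest to the mean profile of the members were Btbd3 (0.403), Rab6b (0.414), Fos (0.415), Opa3 (0.442), Las1l (0.482), Lasp1 (0.487), Jun (0.502), Zdhhc18 (0.506), Otud1 (0.513) and Srf (0.520). The median over all those genes was 1.37. The points are the same 12 libraries for every gene, which share tissue makeup and scaling, so these values describe the libraries and no more.

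For single members the closest genes were Zbtb7a, Opa3 and Arl5b for Egr1 (0.450 to 0.474), Scd3, Socs2 and Jag1 for Egr2 (0.353 to 0.494), and 1700030J22Rik and Rab6b for Egr3 (0.334 and 0.452). For Egr4 they were Mtf1, Dbx2 and Rab6b (0.409 to 0.495). For Nr4a1 they were Lysmd2, Junb and Katna1 (0.424 to 0.459), for Nr4a2 Chrm1, Cacnb1 and Rnf40 (0.397 to 0.402), and for Nr4a3 Alg12, Fam210b and Rybp (0.486 to 0.503). For Npas4 they were Rtn2, Zfp354c and Gga1 (0.379 to 0.400).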

How the data were processed

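The 12 long RNA libraries of 36 samples were used, and the circRNA, small RNA and lncRNA tables were not used here. Per the labels' protocols, RNA was extracted with Trizol and 1 µg entered an Illumina TruSeq RNA kit, and strand is not given. The authors deposited FPKM per transcript, and the submitters' processing notes name Bowtie 0.12.2 and mm8 with no role. Which annotation and quantifier made them is not given in the sources used here.

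FPKM were summed per gene with pandas 2.3.3. Genes averaging 0.5 FPKM or more (13593) entered limma 3.58.1 in R 4.3.3 as log2(FPKM + 0.25) (lmFit, contrasts.fit, eBayes with a trend), with 4 group means in 1 model. A log2 change on that scale understates changes of low genes. Tests were two-sided, and Benjamini-Hochberg adjusted p-values under 0.05 over all genes were called. Members, lists and tests were chosen with earlier results of these data known. Named from each pathway list were called genes and the 3 of highest level, and some genes the rules name are not reported here. The fit was tested on simulated data. Alternatives were a pseudocount of 1, no filter, median-of-ratios scaling, no trend, a replicate block, only the groups compared, marker covariates, and leaving out each library.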

Additional observations from a re-analysis of the deposited data

How the results depend on the processing

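Leaving out each library in turn gave 0 to 1 members called for genotype at 9 months, 0 to 1 for the difference of the genotype effects and 0 to 1 for age in wild type. Over all genes such fits called 5 to 14 genes (13 with all libraries) for genotype at 9 months and 4 to 17 (6) at 6 months. They called 0 to 4 (1) for the difference, 8 to 16 (16) over both ages, 0 to 5 (0) for age in APP/PS1 and 0 to 13 (6) for age in wild type. The 1 member called at 9 months, Egr1, was lost to 0 calls with no filter on low values (limma adjusted p = 0.0549), with no trend (0.0713), with the replicate block (0.104) and with the striatal and choroid plexus covariates (0.152). The cause was not tested. Counts of all genes then moved to 8 with no trend and 5 with the covariates at 9 months, to 3 with the covariates at 6 months, to 0 with them for the difference, and to 9 with no trend and 7 with the covariates over both ages. For age in APP/PS1 they moved to 3 with a pseudocount of 1 and to 3 with only the groups compared. For age in wild type they moved to 1 with no filter, 12 with only the groups compared, 0 with the replicate block and 0 with the covariates. Fits with the block or covariates have fewer residual degrees of freedom. The labels do not say whether the numbers pair the samples. Deviations of same-numbered libraries correlated above 0.1 in 1 of 18 pairs (r from −0.12 to 0.13), and 2 of 12 libraries correlated best with their own number. A correlation over all genes tested cannot show a batch that touches few genes. A batch behind the Nr4a2 transcript split by number was not tested. The replicate block changed no other call of a member.

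Signs reversed only for estimates that were not called. With the covariates the difference of effects became 0.026 for Egr3 and 0.15 for Egr4, and age in wild type became −0.049 for Egr3 and −0.16 for Egr4. With median-of-ratios scaling, age in APP/PS1 became −0.011 for Nr4a2. Fits without a library crossed 0 for genotype in Nr4a3 at 9 months (−0.46 to 0.01) and Egr3 at 6 months (−0.092 to 0.011), for the difference in Nr4a2 (−0.15 to 0.22) and Nr4a3 (−0.37 to 0.10), and over both ages in Egr2 (−0.26 to 0.027). They also did for age in APP/PS1 in Egr4 (−0.13 to 0.016), Nr4a1 (−0.17 to 0.024), Nr4a2 (−0.19 to 0.18) and Npas4 (−0.057 to 0.28), and for age in wild type in Egr3 (−0.006 to 0.10), Nr4a2 (−0.16 to 0.11) and Nr4a3 (−0.21 to 0.27). With FPKM alone, the reads behind Egr2 and Npas4, the least abundant members, are unknown.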
